A study of Arabidopsis thaliana with 12 samples.

Results

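NAC and WRKY transcription factors were followed in roots of Arabidopsis thaliana that overexpress LBD29 or MYB2 or express a MYB2 repressor fusion. The members are all loci whose family column reads NAC or WRKY in any of the 3 deposited tables, each of which sets 1 line against the wild type. That gave 31 loci, 18 NAC and 13 WRKY, out of 2424 genes in any table and 246 with any transcription factor family. Of these, 21 stood in 1 table, 9 in 2 tables and 1, ORE1, in all 3, beside 1845, 464 and 115 of the 2424 genes. RNA came from roots of 8-day-old seedlings grown in darkness on half-strength MS medium, with 3 libraries in each of 4 groups. Col is the wild type Col-0. LBD29-OE carries LBD29 with a 6Gly element behind the viral 35S promoter and overexpresses LBD29, a LATERAL ORGAN BOUNDARIES DOMAIN factor of lateral root formation. MYB2-OE overexpresses MYB2, a MYB factor of abscisic acid and drought responses, from the same promoter. MYB2-SRDX expresses MYB2 joined to the SRDX repression domain, also from 35S; its genotype label calls it dominant negative. The 35S promoter is active in most cell types, and the labels name 1 line per construct. The tables list only genes the authors called, so a NAC or WRKY gene outside a table has no library value for that line.

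NAC proteins bind DNA through a conserved N-terminal domain and regulate organ boundaries, xylem vessel formation, stress responses and senescence. Some NAC transcripts are cleaved under the guidance of the microRNA miR164. WRKY proteins carry a WRKYGQK heptapeptide with a zinc finger, bind W-boxes, and are known above all from immunity, where salicylic acid, jasmonate and MAP kinase signals act on them. In roots both families also take part in nutrient uptake and lateral root formation. Gene symbols follow the tables except for 4 loci. AT5G39610 (NAC6 in the tables) is called ORE1 here, AT3G29035 and AT3G15500 (both NAC3) are called ORS1 and ANAC055, and AT1G66600 (ABO3) is called WRKY63, all of them RefSeq synonyms.

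Sequences of 2 kinds are shown because the results turn on the genes that hold them. The first is miR164a with its matching sites in NAC080 and ORE1, which differed from Col in both MYB2 lines. All sequences and positions are from RefSeq's TAIR10.1 assembly, matched by locus for 31 of 31 members, and are written as DNA. Mature miR164a lies at chr2:19520770-19520790 on the plus strand, and its capitals mark the seed, bases 2 to 8. In the sites, capitals mark bases complementary to miR164a, with G:U pairs counted as mismatches.
miR164a: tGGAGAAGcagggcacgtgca
NAC080 site: TttACGTGCCCTGCTTCTCCA
ORE1 site: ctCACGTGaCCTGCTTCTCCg
The NAC080 site (chr5:2436958-2436978, plus strand) has 2 mismatches and the ORE1 site (chr5:15858797-15858817, minus strand) has 4. Both lie in coding sequence, in exon 3 of 3. Among 27440 annotated protein-coding genes, 13 held a site with at most 4 mismatches (0.0474%), and among the members only these 2 did. ORS1, a close relative of ORE1, had at best 6 mismatches. The search was chosen after the values of these genes had been seen.

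The second kind is the 250 bases before the annotated start of 3 genes, shown for the binding motifs they hold. NAC047 (chr3:1063235-1063484, minus strand), listed as higher in MYB2-OE, holds TAACTG, a sequence MYB2 is known to bind. NAC042 (chr2:17882637-17882886, minus strand) and WRKY45 (chr3:327413-327662, minus strand), listed as higher in MYB2-SRDX, each hold 2 copies of the W-box core, TTGACC or TTGACT. Capitals mark these motifs on either strand.
NAC047: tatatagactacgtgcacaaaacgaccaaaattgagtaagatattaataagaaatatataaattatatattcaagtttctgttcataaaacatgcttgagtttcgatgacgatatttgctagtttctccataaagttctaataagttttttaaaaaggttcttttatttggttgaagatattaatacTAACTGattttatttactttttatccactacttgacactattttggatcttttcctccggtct
NAC042: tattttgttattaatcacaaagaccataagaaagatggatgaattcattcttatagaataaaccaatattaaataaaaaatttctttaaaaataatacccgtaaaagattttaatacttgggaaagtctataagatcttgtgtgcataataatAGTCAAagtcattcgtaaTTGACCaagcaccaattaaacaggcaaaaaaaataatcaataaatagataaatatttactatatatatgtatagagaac
WRKY45: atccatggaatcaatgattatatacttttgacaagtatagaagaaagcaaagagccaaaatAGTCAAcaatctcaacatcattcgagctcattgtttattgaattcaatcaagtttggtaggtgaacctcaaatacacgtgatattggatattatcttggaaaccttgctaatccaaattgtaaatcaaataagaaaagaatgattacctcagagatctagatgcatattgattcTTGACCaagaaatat
TAACTG begins 63 bases before the NAC047 start. The W-box cores begin 97 and 79 bases before the NAC042 start and 189 and 15 bases before the WRKY45 start. Counted from 250 bases before to 50 after the start, on both strands, the W-box core occurred in 9 of 31 member promoters (29.0%) and in 32.4% of 27444 annotated promoters. Of the other members listed as higher in MYB2-SRDX, WRKY41 and WRKY55 also held it, while WRKY51, WRKY63 and WRKY70 did not. TAACTG occurred in 2 of 31 (6.45%), NAC047 and ANAC055, against 9.34% of all promoters. ANAC055 was listed for LBD29-OE alone. None of the other members listed as higher in MYB2-OE held TAACTG, among them ORE1, NAC080, XND1 and WRKY28. CATGTG, a core of the site of stress-related NAC proteins, occurred in 5 of 31 (16.1%) against 12.9%. These are letter matches, not measured binding.

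LBD29 and MYB2 themselves matched the labels. LBD29 measured 477 to 603 FPKM (fragments per kilobase of transcript, scaled to library size) in LBD29-OE against 2.55 to 3.08 FPKM in Col. MYB2 measured 375 to 636 FPKM in MYB2-OE and 445 to 538 FPKM in MYB2-SRDX, against 0.48 to 1.01 FPKM in Col. In each line 1 library stood apart from the others of that line. Replicate 2 of LBD29-OE had 213 FPKM summed over the 5 green tissue markers listed there. Replicates 1 and 3 had 11.4 and 13.5 FPKM, and Col 98.4 to 129 FPKM. The markers did not all go the same way in replicate 2. RBCS2B, RBCS3B and CAB2 lay above Col there, with CAB2 at 36.4 FPKM against 0.12 to 0.41 FPKM in Col. RBCS1A lay within the Col range. PORB, at 1.27 FPKM, lay below the 4.13 to 4.49 FPKM of Col, as it did in replicates 1 and 3 (1.56 and 0.74 FPKM). Replicate 2 of MYB2-OE had LBD29 at 109 FPKM, against 1.82 and 1.93 FPKM. In MYB2-SRDX, library 1 (libraries are numbered by the last digit of their column) had the 3 listed seed markers at a sum of 3.98 FPKM, against 0 in libraries 2 and 3 and at most 0.05 FPKM in Col. Its 2 listed green tissue markers summed to 10.3 FPKM, against 0.57 and 0.73 FPKM in libraries 2 and 3 and 5.16 to 6.80 FPKM in Col. They went opposite ways from Col, since RBCS2B had 9.17 FPKM in library 1 against 1.05 to 1.57 FPKM, and LHCB2.1 had 1.13 FPKM against 4.11 to 5.28 FPKM. None of the 5 root cap markers stood in any table, so the root label could not be checked from them. In bulk roots, fewer cells of a type and less RNA per cell cannot be told apart.

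In MYB2-OE, NAC genes made up most of the listed members and most were higher than in Col, whereas in MYB2-SRDX 6 of 7 listed NAC genes were lower and 6 of 6 WRKY genes higher. Of 15 members listed for MYB2-OE, 10 NAC genes and 1 WRKY gene were higher, and 3 NAC genes and 1 WRKY gene were lower. Of all 1271 genes listed there, 52.4% were higher and 47.6% lower. For MYB2-SRDX 1 NAC and 6 WRKY genes were higher, beside 52.9% of all 1045 listed genes, and 6 NAC genes were lower, beside 47.1%. For LBD29-OE 2 NAC and 2 WRKY genes were higher, beside 41.8% of all 802 listed genes, and 6 NAC and 4 WRKY genes were lower, beside 58.2%. Of the 6 WRKY genes of MYB2-SRDX, 2 were separate from Col, limma called 1, and 1 reached 2-fold without library 1. The shares of all genes listed as higher there were 62.4%, 44.3% and 53.0%, in the same order. The listed directions are the authors' own calls. With 3 libraries against 3, a two-sided exact permutation test of 1 gene cannot go below p = 0.1, so the separation of the libraries and an adjusted p from limma, fitted on log2(FPKM + 1) over the whole table, are given as well. Folds are the authors' log2 turned into ratios, while log2 values with a library left out, and the 2-fold counts that go with them, come from mean FPKM + 0.1. Limma saw the listed genes alone, so its calls follow on the selection made by the authors.

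**Figure D1:**
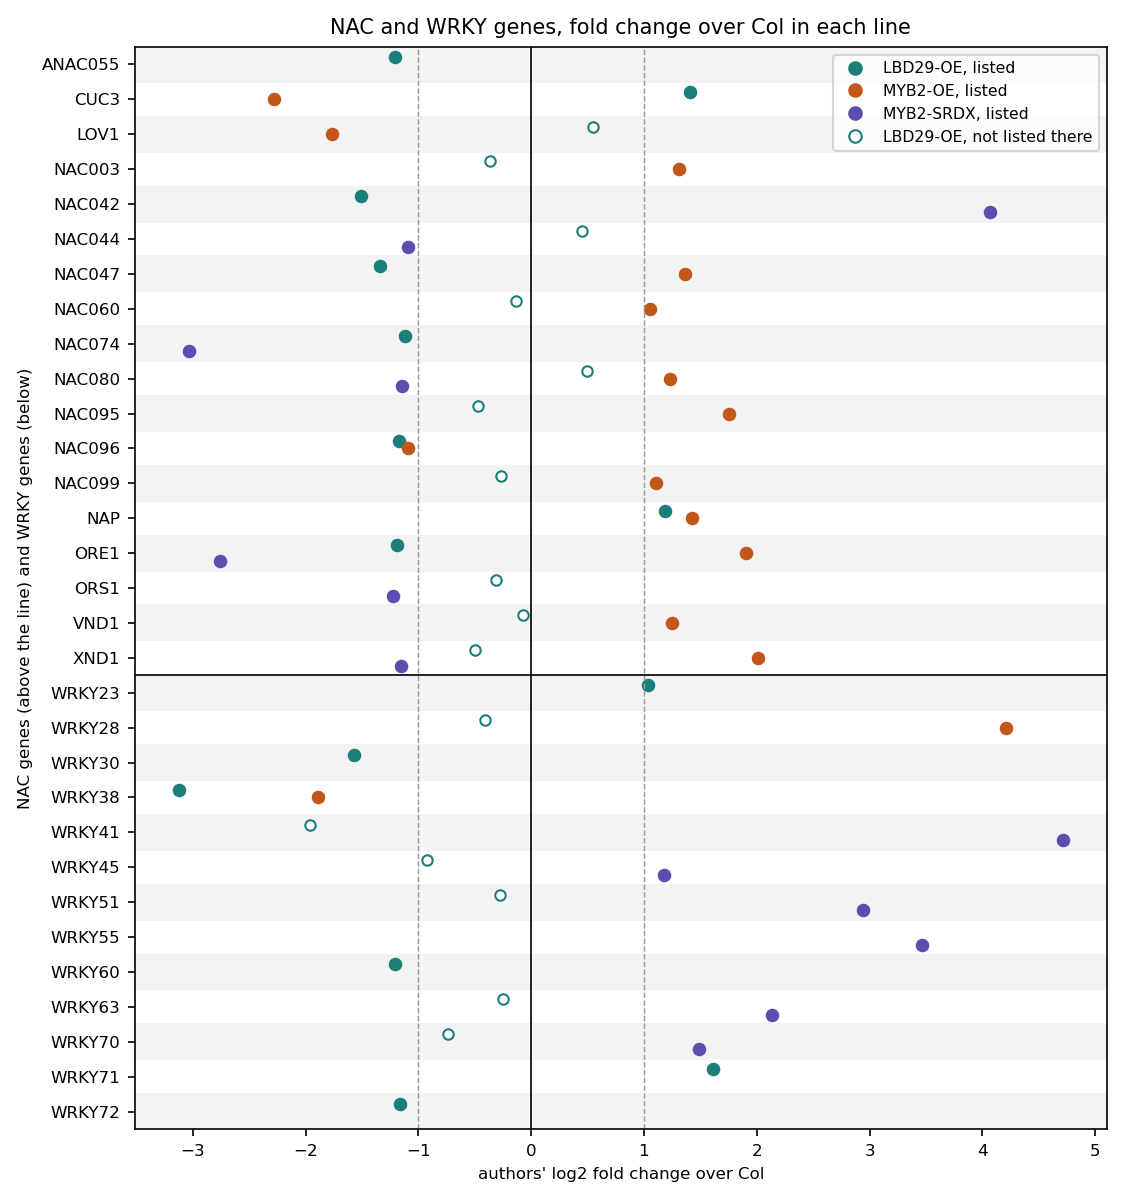
The authors' log2 fold change over Col (x axis) is plotted for the 18 NAC and 13 WRKY genes, with filled points for the line in whose table the gene is listed. Open points give the LBD29-OE value that the MYB2 tables carry for genes not listed for LBD29-OE, and dashed lines mark 2-fold.

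Several NAC genes linked to senescence and cell death differed from Col in more than 1 line. ORE1 encodes a NAC factor that promotes leaf senescence and age-dependent cell death. In Col it measured 3.21, 3.86 and 6.63 FPKM. It measured 17.97, 14.7 and 18.7 FPKM in MYB2-OE, all above Col. In MYB2-SRDX the values were 0.83, 0.47 and 0.73 FPKM, all below Col. LBD29-OE libraries had 2.09, 2.27 and 1.66 FPKM, also all below Col, though Col replicate 3 was the highest Col library. The rise in MYB2-OE was 3.75-fold (authors' log2 1.91; limma difference 1.74 ± 0.239 SE on the log2(FPKM + 1) scale, adjusted p = 0.000977). The fall in MYB2-SRDX was 6.75-fold (authors' log2 -2.76; limma -1.69 ± 0.249 SE, adjusted p = 0.00334). In LBD29-OE the fall was 2.28-fold (authors' log2 -1.19, limma adjusted p = 0.0174), and without Col replicate 3 it stood under 2-fold, at a log2 of -0.79. The 3 comparisons share their Col libraries.

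NAC080, whose transcript carries the closest miR164 match shown above, was among the most abundant members. Its level was 25.5, 24.0 and 31.6 FPKM in Col and 67.0, 59.2 and 70.6 FPKM in MYB2-OE. MYB2-SRDX libraries 1 to 3 measured 9.35, 13.1 and 15.0 FPKM. The 3 groups did not overlap. It rose 2.35-fold in MYB2-OE (authors' log2 1.23, limma adjusted p = 0.000674) and fell 2.22-fold in MYB2-SRDX (authors' log2 -1.15, limma adjusted p = 0.00826). The MYB2-SRDX fall lay near the 2-fold limit, at a log2 of -0.94 without library 1 and -0.98 without Col replicate 3. For LBD29-OE, where NAC080 was not listed, the authors' deposited table gave a log2 of 0.50.

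ORS1, named as the sister of ORE1 and likewise a promoter of senescence, was listed for MYB2-SRDX alone. Among the 18 listed NAC genes it was the most abundant in Col, with 35.7, 44.9 and 51.6 FPKM. MYB2-SRDX libraries measured 14.4, 21.2 and 21.0 FPKM, all below Col, a 2.34-fold fall (authors' log2 -1.23, limma adjusted p = 0.00652). The authors' deposited table gave an LBD29-OE log2 of -0.31 for it. NAC074, known as KIRA1 and as a partner of ORE1 in the death of stigma papilla cells, had the deepest fall of any listed NAC gene. Its 6.45, 4.93 and 7.14 FPKM in Col compared with 1.24, 0.59 and 0.48 FPKM in MYB2-SRDX, an 8.21-fold fall (authors' log2 -3.04, limma adjusted p = 0.00149). In LBD29-OE it measured 2.57, 2.65 and 3.45 FPKM, a 2.17-fold fall (authors' log2 -1.11, limma adjusted p = 0.0041) that stood just under 2-fold without Col replicate 3 or without LBD29-OE replicate 1, at log2 values of -0.95 and -0.99. The Col and line libraries of NAC074 did not overlap in either table.

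NAP, a NAC gene that drives leaf senescence, was higher in both overexpression lines. Col had 0.88, 1.13 and 0.98 FPKM, MYB2-OE 2.31, 2.55 and 3.21 FPKM, and LBD29-OE 1.70, 1.74 and 3.40 FPKM. Every line library lay above every Col library. The rise was 2.69-fold in MYB2-OE (authors' log2 1.43, limma adjusted p = 0.0015) and 2.28-fold in LBD29-OE (authors' log2 1.19, limma adjusted p = 0.0249), where the log2 was 0.73 without replicate 3. NAC047, which promotes upward leaf movement in waterlogged plants, was higher in MYB2-OE and lower in LBD29-OE. It measured 5.45, 5.11 and 7.46 FPKM in Col and 17.8, 14.6 and 15.2 FPKM in MYB2-OE. LBD29-OE libraries had 1.81, 2.36 and 3.38 FPKM, with no overlap among the 3 groups. Its rise was 2.58-fold (authors' log2 1.37, limma adjusted p = 0.000848) and its fall 2.52-fold (authors' log2 -1.34, limma adjusted p = 0.00582), and both stayed above 2-fold whichever library was left out. In the gene ontology terms deposited with the tables, leaf senescence was attached to 4 members, ORE1, ORS1, NAP and NAC042, and to 1 of 215 other listed transcription factors. Of these 4, NAC042 was listed as higher in MYB2-SRDX, and ORE1 and ORS1 as lower. Among other terms looked up, defense response was attached to 5 members, all WRKY, and 16 of the 215 others. Response to ethylene was attached to 1 member and 43 of the 215 others. BFN1, a nuclease gene that ORE1 is known to activate, stood in no table.

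**Figure D2:**
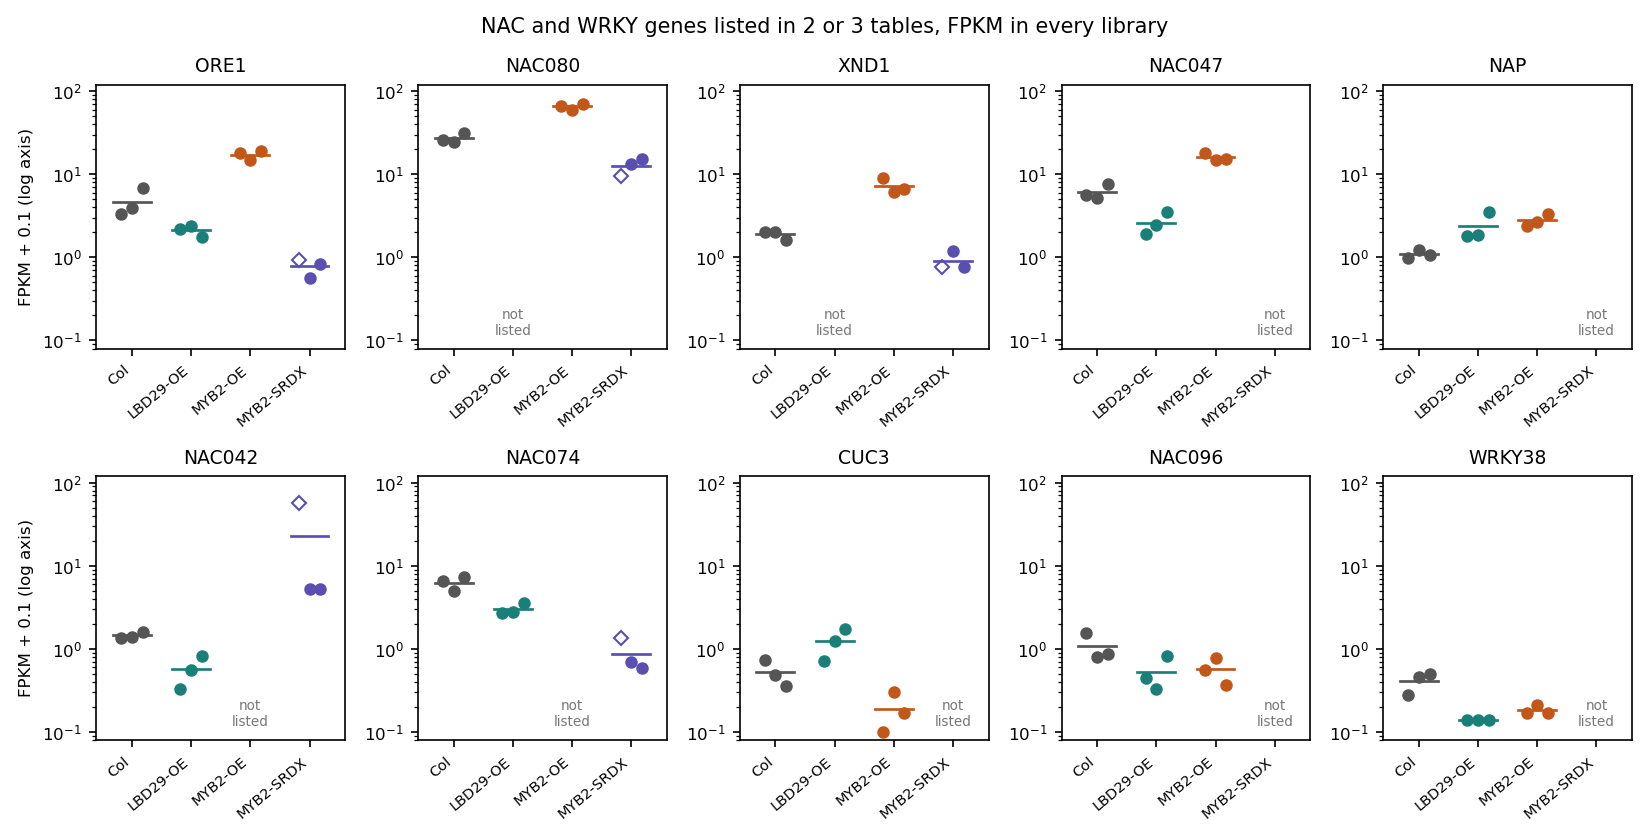
FPKM + 0.1 on a log axis is plotted in every library for the 10 members listed in 2 or 3 tables, with bars at the group means and an open diamond for MYB2-SRDX library 1. ORE1, NAC080 and XND1 lie above Col in all MYB2-OE libraries and below Col in all MYB2-SRDX libraries, and groups without points are not listed for that gene.

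Of the xylem NAC genes, XND1, which holds back the differentiation of xylem vessels, was higher in MYB2-OE and lower in MYB2-SRDX, 2 comparisons that share their Col libraries. Col measured 1.90, 1.93 and 1.53 FPKM. MYB2-OE had 8.87, 5.97 and 6.56 FPKM and MYB2-SRDX 0.66, 1.10 and 0.66 FPKM, and the groups did not overlap. The 4.04-fold rise (authors' log2 2.01, limma adjusted p = 0.000499) followed that of WRKY28 among the MYB2-OE members by the authors' log2, whereas limma put ORE1 (1.74) above XND1 (1.53). The 2.22-fold fall in MYB2-SRDX (authors' log2 -1.15, limma adjusted p = 0.0141) stood at a log2 of -0.94 without library 1 or without library 3. VND1, which promotes vessel formation, was also higher in MYB2-OE, with 2.18, 1.62 and 1.79 FPKM against 0.53, 1.2 and 0.73 FPKM in Col (authors' log2 1.25, limma adjusted p = 0.00982). Its fold stood under 2 without Col replicate 1 (log2 0.88) or without MYB2-OE replicate 1 (log2 0.97). Of 7 secondary wall genes downstream of the vessel NAC factors, among them MYB46, MYB83 and the cellulose synthase genes CESA4, CESA7 and CESA8, 0 stood in any table.

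The NAC genes CUC3 and LOV1, known from shoot development, were low in roots. CUC3, a gene of organ boundaries, measured 0.63, 0.39 and 0.26 FPKM in Col. MYB2-OE had 0, 0.20 and 0.07 FPKM, and LBD29-OE had 0.62, 1.15 and 1.64 FPKM. All MYB2-OE libraries lay below Col (authors' log2 -2.28, limma adjusted p = 0.0422). In LBD29-OE replicate 1 lay within the Col range (authors' log2 1.41, limma adjusted p = 0.0424), and without replicate 3 the log2 was 0.90. LOV1, a repressor of flowering, measured 0.99, 1.39 and 1.06 FPKM in Col and 0.10, 0.73 and 0.20 FPKM in MYB2-OE (authors' log2 -1.76, limma adjusted p = 0.0142). Without MYB2-OE replicate 2, the highest of the line, its log2 went from -1.49 to -2.32.

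The other NAC genes listed as higher in MYB2-OE were NAC003, NAC060, NAC095 and NAC099. NAC003 measured 4.25, 5.45 and 4.76 FPKM in Col and 11.99, 9.11 and 14.8 FPKM in MYB2-OE, a 2.48-fold rise (authors' log2 1.31, limma adjusted p = 0.00192) with no overlap. NAC060, which acts in sugar and abscisic acid signalling of seedlings, and NAC099 also rose. Mean NAC060 was 1.34 ± 0.312 FPKM in Col against 2.83 ± 0.366 FPKM (SD, n = 3), and mean NAC099 was 2.76 ± 0.522 against 5.93 ± 0.776 FPKM, with limma adjusted p values of 0.00448 and 0.0023. Both stood under 2-fold without MYB2-OE replicate 1, at log2 values of 0.92 and 0.97, and also without Col replicate 1 for NAC060 (0.86) and Col replicate 2 for NAC099 (0.94). NAC095 was near the detection limit, with 0, 0.43 and 0.16 FPKM in Col and 0.49, 0.98 and 0.55 FPKM in MYB2-OE (authors' log2 1.75, limma adjusted p = 0.0414, log2 0.97 without Col replicate 1). In all, the 11 higher members of MYB2-OE were separate from Col in 11 of 11 cases, beside 93.7% of all genes listed as higher, and the 4 lower members in 4 of 4, beside 89.4%. Limma called 11 of the 11 higher members, beside 86.3%, and 2 of the 4 lower members, beside 87.1%. With a pseudocount of 0.1 limma called 4 of the 4 lower members. Without MYB2-OE replicate 2 the 2-fold limit was met by 11 of the 11 higher members, beside 91.6%, and by 4 of the 4 lower, beside 94.2%.

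NAC096, which acts with abscisic acid factors in dehydration, and NAC044, which acts in the arrest of cell division after DNA damage, were low throughout. NAC096 measured 1.45, 0.70 and 0.76 FPKM in Col. LBD29-OE had 0.34, 0.23 and 0.73 FPKM, and MYB2-OE had 0.46, 0.68 and 0.27 FPKM. It was listed as lower in both lines, at authors' log2 values of -1.17 and -1.09, but LBD29-OE overlapped Col and limma gave adjusted p values of 0.0739 and 0.0756. Without Col replicate 1, the highest, its log2 was -0.64 in LBD29-OE and -0.54 in MYB2-OE. NAC044 had 1.02, 0.98 and 0.98 FPKM in Col and 0.60, 0.27 and 0.52 FPKM in MYB2-SRDX (authors' log2 -1.09, limma adjusted p = 0.0269). From mean FPKM + 0.1 its log2 was -0.96, and -0.73 without library 2. ANAC055, a NAC gene of jasmonate and drought responses, was listed as lower in LBD29-OE with 0.67, 0.79 and 0.30 FPKM against 0.53, 1.19 and 2.35 FPKM in Col. These groups overlapped, limma did not call it (adjusted p = 0.148), and its log2 was -0.48 without Col replicate 3 and -0.81 without LBD29-OE replicate 3.

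NAC042, also called JUB1, stood alone as the NAC gene listed as higher in MYB2-SRDX. It encodes a hydrogen peroxide-inducible factor that delays senescence and also acts in camalexin synthesis. Col had 1.25, 1.28 and 1.51 FPKM, and MYB2-SRDX 57.4 FPKM in library 1 and 5.11 and 5.08 FPKM in libraries 2 and 3. LBD29-OE had 0.23, 0.46 and 0.73 FPKM. All MYB2-SRDX libraries were above Col and all LBD29-OE libraries below it. The authors' log2 was 4.07 in MYB2-SRDX, where limma gave an adjusted p of 0.0603. Without library 1 the log2 was 1.84. In LBD29-OE the fall was 2.85-fold (authors' log2 -1.51, limma adjusted p = 0.00752). DREB2A, a dehydration factor gene that JUB1 is known to activate, measured 6.46 FPKM in library 1 and 17.7 and 17.4 FPKM in libraries 2 and 3 of MYB2-SRDX, against 4.65 to 7.57 FPKM in Col. Unlike NAC042 it was thus highest outside library 1. UGT74E2, a glucosyltransferase gene downstream of the mitochondrial stress NAC factors, ran likewise, with 18.9, 34.0 and 31.6 FPKM against 10.2 to 15.3 FPKM in Col. These were the only listed genes of the 5 mitochondrial stress and 9 stress and senescence targets, 1 from each list and both in MYB2-SRDX.

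Among WRKY genes in MYB2-SRDX, WRKY51 was high in every library and the rest were high mainly in library 1. WRKY51 is known for repressing jasmonate responses together with WRKY50 in plants low in oleic acid. It measured 0.82, 0.91 and 1.21 FPKM in Col and 9.12, 6.64 and 6.77 FPKM in MYB2-SRDX, a 7.67-fold rise (authors' log2 2.94; limma 2.1 ± 0.161 SE, adjusted p = 0.000678). Its log2 without library 1 was 2.66. WRKY45, which activates phosphate uptake in phosphate-starved roots, measured 17.2, 7.82 and 8.13 FPKM against 4.08, 3.69 and 6.88 FPKM in Col. Its libraries did not overlap Col, but limma did not call it (adjusted p = 0.0566) and its log2 went from 1.16 to 0.70 without library 1. PHT1;1, the phosphate transporter gene it is known to activate, stood in no table.

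The other WRKY genes listed for MYB2-SRDX overlapped Col. WRKY70, a factor at the crossing of salicylic acid and jasmonate signals, measured 17.2 FPKM in library 1 and 4.31 and 2.62 FPKM in libraries 2 and 3, against 3.34, 3.08 and 2.18 FPKM in Col. WRKY41, a factor of immunity and seed dormancy, measured 5.69, 0.17 and 0 FPKM against 0.08, 0.07 and 0.11 FPKM in Col. For WRKY55, a factor of salicylic acid synthesis and leaf senescence, the values were 1.91, 0 and 0 FPKM against 0, 0.09 and 0.13 FPKM. WRKY63, a factor of abscisic acid and drought responses, had 1.88, 0.28 and 0.52 FPKM against 0.14, 0.33 and 0.14 FPKM. Without library 1 the log2 values of these 4 genes were 0.27, -0.01, -0.79 and 0.72, and limma gave adjusted p values of 0.239, 0.322, 0.406 and 0.164. Library 1 was at least 2 times the mean of libraries 2 and 3 in 5 of the 6 WRKY genes and in NAC042, beside 44.8% of all genes listed as higher in the line.

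**Figure D3:**
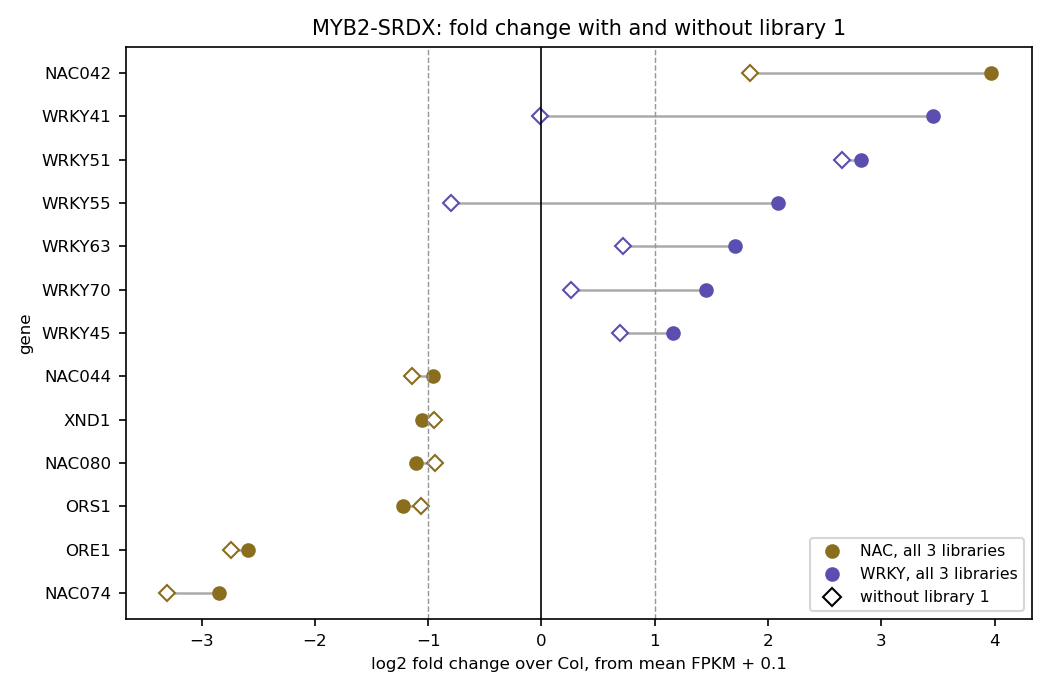
Log2 fold change over Col from mean FPKM + 0.1 is plotted for the 13 members listed for MYB2-SRDX, with filled circles for all 3 libraries and open diamonds without library 1. WRKY51 and NAC042 stay above 2-fold (dashed line) without library 1, and ORE1, ORS1 and NAC074 stay beyond it on the lower side, while NAC044 moves from -0.96 to -1.14.

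Counted together, 7 members were listed as higher in MYB2-SRDX. Of these, 3 were separate from Col, beside 62.4% of all genes listed as higher, and 2 reached 2-fold without library 1, beside 53.0%. Limma called 1 of them, WRKY51, beside 44.3%. The 6 lower NAC genes were separate from Col in 6 of 6 cases, beside 88.8%, and limma called 6 of 6, beside 74.8%. Without library 1, 4 of the 6 met the 2-fold limit, beside 85.4%, the exceptions being NAC080 and XND1. NAC044 is counted among the 4 although it stood at a log2 of -0.96 with all libraries. The part of the seed and green tissue markers of library 1 in these values was not tested.

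Most listed partners and targets of WRKY proteins were likewise highest in library 1. Of 12 partners and kinases, 3 were listed as higher in MYB2-SRDX and 0 as lower, and of 13 targets 6 were listed as higher and 0 as lower, beside 52.9% of all genes of the table listed as higher. MPK11, an immunity-linked MAP kinase gene, measured 3.35 FPKM in library 1 and 0.09 FPKM in libraries 2 and 3, against 0.03 to 0.18 FPKM in Col. SIB1 and SIB2 encode proteins that bind WRKY33. SIB1 measured 2.90, 0.80 and 1.05 FPKM against 0.42 to 0.54 FPKM, and SIB2 4.80, 5.26 and 5.40 FPKM against 2.25 to 2.91 FPKM, so both lay above Col in every library. Of the 6 targets, the camalexin genes PAD3, CYP71A12 and CYP71A13, the cyanogenic metabolite gene CYP82C2, the flagellin-response kinase gene FRK1 and the immune regulator gene CBP60G, only PAD3 and FRK1 were separate from Col, beside 62.4% of all genes listed as higher. Without library 1 all 6 were under 2-fold, at log2 values from -0.19 to 0.84, whereas 53.0% of all genes listed as higher reached it.

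**Figure D4:**
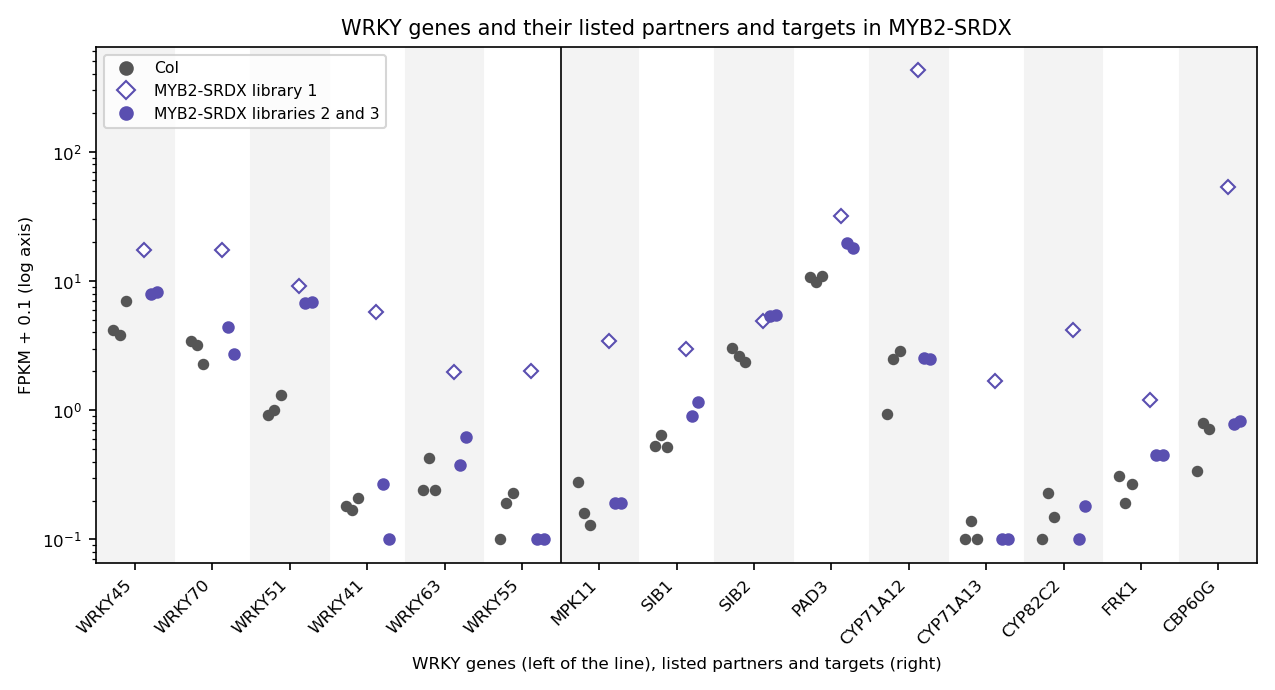
FPKM + 0.1 on a log axis is plotted for the 6 WRKY genes and the 9 partner and target genes listed for MYB2-SRDX, with Col libraries in grey, MYB2-SRDX library 1 as an open diamond and libraries 2 and 3 as filled circles. WRKY51 and SIB2 lie above Col in all 3 libraries at similar levels, whereas MPK11, CYP71A12 and CBP60G are high in library 1 and within or near the Col range in the others.

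Only 2 WRKY genes were listed for MYB2-OE, whereas LBD29-OE had 6, as did MYB2-SRDX. WRKY28 in MYB2-OE had the largest rise among WRKY genes of the overexpression lines. WRKY28 is known to activate the salicylic acid synthesis gene ICS1. It measured 0.36, 0.26 and 0.32 FPKM in Col and 6.64, 5.0 and 5.83 FPKM in MYB2-OE, an 18.5-fold rise (authors' log2 4.21; limma 2.37 ± 0.133 SE, adjusted p = 5.85e-05). No library overlapped. From mean FPKM + 0.1 the log2 was 3.84, and it stayed between 3.74 and 3.94 whichever library was left out. ICS1 itself stood in no table. WRKY38, which restrains basal defence, was near the detection limit, with 0.18, 0.36 and 0.40 FPKM in Col, 0.07, 0.11 and 0.07 FPKM in MYB2-OE and 0.04 FPKM in each LBD29-OE library. The authors' log2 was -1.89 in MYB2-OE and -3.12 in LBD29-OE, with limma adjusted p values of 0.0664 and 0.0324. From mean FPKM + 0.1 the LBD29-OE value was -1.56, so the size of this fall depends on how low values are treated.

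In LBD29-OE the most abundant WRKY genes of the set, WRKY72 and WRKY60, were lower. WRKY72, a factor of basal defence, measured 40.4, 37.9 and 39.0 FPKM in Col and 19.8, 18.4 and 13.7 FPKM in the line, a 2.24-fold fall (authors' log2 -1.16; limma -1.14 ± 0.156 SE, adjusted p = 0.00128). WRKY60, which acts with WRKY18 and WRKY40 in defence and abscisic acid responses, measured 19.7, 21.7 and 16.8 FPKM in Col but 6.43, 7.96 and 10.9 FPKM in the line, a 2.31-fold fall (authors' log2 -1.21, limma adjusted p = 0.00336). Neither gene's groups overlapped, and both falls stayed above 2-fold whichever library was left out. WRKY30, a stress-responsive factor, was listed as lower with 0.37, 0.29 and 0.18 FPKM against 1.15, 1.03 and 0.33 FPKM in Col. It overlapped Col and limma did not call it (adjusted p = 0.0609).

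WRKY23, an auxin-responsive gene that acts in root development, was higher in LBD29-OE. It measured 4.84, 5.70 and 5.11 FPKM in Col and 8.38, 11.5 and 12.1 FPKM in the line, with no overlap (authors' log2 1.03, limma adjusted p = 0.00346). Its fold lay at the limit and stood under 2 without Col replicate 1 (log2 0.97), LBD29-OE replicate 2 (0.96) or replicate 3 (0.92). WRKY71, which promotes shoot branching and flowering, was low, with 0.17, 0.17 and 0.21 FPKM in Col and 0.80, 0.42 and 0.47 FPKM in the line (authors' log2 1.61, limma adjusted p = 0.0286, log2 0.94 without replicate 1). Of the 4 members listed as higher in LBD29-OE, 3 were separate from Col, beside 79.1% of all genes listed as higher, and limma called 4, beside 72.8%. Of the 10 lower members 7 were separate, beside 89.5%, and limma called 7, beside 85.0%. In the sum of green tissue markers, though not in PORB, replicate 2 stood apart from replicates 1 and 3. Without it, 3 of the 4 higher members met the 2-fold limit, beside 77.9%, and 9 of the 10 lower, beside 90.6%. The part of those markers in the values was not tested. Of the 12 partners and kinases, 1, the kinase gene MKK9, was listed as lower in LBD29-OE and 0 as higher. Of the 13 targets, 3 were listed as lower, PAD3, CYP71A12 and CBP60G, and 0 as higher, beside 58.2% of all genes of the table listed as lower. Each of these had all LBD29-OE libraries below Col, beside 89.5% of all genes listed as lower. MYB2-OE had the same 3 targets listed as lower and 0 as higher, beside 47.6% of all genes of its table listed as lower. There CBP60G, at 0.20, 0.26 and 0.28 FPKM, overlapped the 0.24 to 0.70 FPKM of Col, with a log2 of -0.74 without replicate 1. PAD3 had 3.29 FPKM in replicate 2 against 0.34 and 0.53 FPKM in replicates 1 and 3, all below Col.

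Both MYB2 tables also carry the authors' LBD29-OE log2 for most of their genes, without library values. Of the 17 members outside the LBD29-OE table, 16 had such a value, 13 of them negative and 3 positive, and 15 lay within 1 of zero. The last count largely follows from the listing, since every gene listed for LBD29-OE had an absolute log2 above 1. The share of negative values over all other genes was not counted, so the signs are not a result about the members. The positive ones were LOV1 (0.55), NAC080 (0.50) and NAC044 (0.45). WRKY45 (-0.93) and WRKY70 (-0.74), listed as higher in MYB2-SRDX, were among the negative ones, as was WRKY41 at -1.96, with an authors' Q-value of 0.0876. All of these are from the authors' deposited table and have no replicate values here.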

How the data were processed

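Each of the 3 deposited tables compares Col with 1 line and gives FPKM for every library besides group means, per the file headers. The tables also hold the authors' log2 fold change, p-value and Q-value, per the file headers. Both MYB2 tables repeat these columns for LBD29-OE. Every listed gene had an absolute authors' log2 above 1 and a Q-value of at most 0.000999, and Col values shared by 2 tables differed by 0. The build was TAIR10 per the submitters' processing notes. Aligner, counting tool and test were not given in the sources used here, so shared reads among related NAC or WRKY genes cannot be judged. Depth is unknown, since FPKM does not carry it, and no interval or floor that needs it is given.

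Groups came from the genotype labels. The MYB2-SRDX columns carry no sample title, so they were assigned to the group and are named by their last digit. No label tells if the 3 samples per genotype were separate cultures, so p-values reflect the variation among these samples alone, and that variation may be technical. The authors' calls were the main result. Folds printed as ratios are the authors' log2 on a linear scale. Log2 values with a library left out were computed from mean FPKM + 0.1, and limma 3.58.1 in R 4.3.3 was fitted on log2(FPKM + 1) for each whole table, with Benjamini-Hochberg adjustment at 0.05. Fold changes on that scale understate changes of low genes. The limma script was tested on simulated data in which 200 genes were changed and all genes had a common spread. The real genes were all picked as changed and differ in spread, so that test checks the code and not the calls. Library values were given for members in 2 or more tables and for up to 6 rises and 6 falls per table whose larger group mean reached 2 FPKM. The remaining members and all listed genes of the partner and target lists were added beside them. The members and the 8 lists with 62 genes were chosen with earlier results of these data known.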

Additional observations from a re-analysis of the deposited data

Results flagged for a closer look

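A total of 6 differences between lines are singled out because every library of one line moved one way from Col and every library of the other moved the opposite way. None of these differences between lines was tested, and the comparisons share the same Col libraries. Between the MYB2 lines the pattern is not particular to these members, since most genes listed in both MYB2 tables were also listed in opposite directions. No such share was counted for the pairs with LBD29-OE. NAP, NAC096 and WRKY38 were listed the same way in LBD29-OE and MYB2-OE, as were NAC074 and ORE1 in LBD29-OE and MYB2-SRDX. CUC3 was higher in LBD29-OE and lower in MYB2-OE, but overlapped Col in LBD29-OE. ORE1, NAC080 and XND1 were higher in MYB2-OE and lower in MYB2-SRDX, with authors' log2 values of 1.91, 1.23 and 2.01 in MYB2-OE and -2.76, -1.15 and -1.15 in MYB2-SRDX. ORE1 and NAC047 were lower in LBD29-OE, at -1.19 and -1.34, and higher in MYB2-OE, at 1.91 and 1.37. NAC042 was lower in LBD29-OE, at -1.51, and higher in MYB2-SRDX, at 4.07.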

How the results depend on the processing

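With a pseudocount of 1 on mean FPKM, the members reaching 2-fold fell from 4 to 0 higher and from 10 to 2 lower in LBD29-OE, and from 11 to 6 higher and from 4 to 0 lower in MYB2-OE. Most of these genes are low, and a pseudocount of 1 shrinks their folds by construction. Keeping only members whose larger group mean reached 1 FPKM left 1 of the 4 lower members of MYB2-OE. Limma called 2 of these 4 with a pseudocount of 1 and 4 with 0.1, and, in MYB2-SRDX, 1 of 7 higher members with a pseudocount of 1 and 2 with 0.1, while 3 of the 7 were separate from Col. Same-numbered libraries of Col and the line deviated together at r of -0.086 to 0.021 across the listed genes. Such genes were picked by the authors' calls, so this cannot settle if the replicate numbers pair the samples. With the replicate number as a block, limma called 2 higher and 6 lower members in LBD29-OE and 11 higher and 1 lower in MYB2-OE. Shares over all listed genes were not counted for the block, the 1 FPKM filter, limma at 0.1 or the 2-fold limit at a pseudocount of 1. Losses under these settings therefore cannot be read as particular to the members. In MYB2-OE every sample correlated best with its own number, in LBD29-OE none did. No block was possible for MYB2-SRDX, whose columns carry no replicate number of a sample. Leaving out 1 library at a time gave 1 to 4 higher and 7 to 10 lower members in LBD29-OE, 8 to 11 and 3 to 4 in MYB2-OE, and 2 to 7 and 4 to 5 in MYB2-SRDX. WRKY55 and WRKY41 changed sign without MYB2-SRDX library 1, to -0.79 and -0.0129. Of 336 recomputed folds of single members these 2 were the only reversals. Motif shares over the 250 bases before the start only were 25.8% for the W-box core, 6.45% for TAACTG and 12.9% for CATGTG. Depth is unknown, so folds of members under 1 FPKM are the least certain.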
